A study of Sus scrofa with 63 samples.

Results

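Arginine and citrulline synthesis genes were followed in the jejunum of pig fetuses late in gestation. The members were 9 genes, ALDH18A1, OAT, OTC, CPS1, NAGS, ASS1, ASL, ARG1 and ARG2, and every array probe whose gene name equalled one of these symbols was taken, in any letter case. This gave 30 of the 60305 probes of the array, for 7 of the 9 genes. No probe carried the name CPS1 or ASL, so both are not analysed here. Of the 30 probes, 26 were bright enough to be tested, of 40515 tested in all. OAT had 11 tested probes, OTC 4, NAGS 3, ARG1 3 of 5, ALDH18A1 2, ARG2 2 of 4 and ASS1 1. The 4 untested probes were well above background on 11 and 7 of 63 arrays (ARG1) and on 5 and 3 (ARG2).

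RNA from the middle part of the jejunum was measured in 63 fetuses, 1 per one-colour Agilent array. The fetuses, male per the study's methods, were taken by caesarean at day 90 or day 110 of gestation. Purebred Large White fetuses (LW) had an LW sire and an LW sow, and purebred Meishan fetuses (MS) had an MS sire and an MS sow. LWMS fetuses had an LW sire and an MS sow, and MSLW fetuses an MS sire and an LW sow. At day 90 the numbers were 9 for LW, 9 for LWMS, 8 for MSLW and 6 for MS, and at day 110 they were 9 for LW, 9 for LWMS, 6 for MSLW and 7 for MS. Sows were inseminated with mixed semen, so a litter held purebred and crossbred fetuses, but litter membership was not used here. A level below is the log2 signal of a probe minus the 75th percentile of its array, so 0 is the level of that percentile, and levels are compared between fetuses and never between probes.

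The small intestine of the late fetus and the neonate makes citrulline and arginine from glutamine, glutamate and proline. ALDH18A1 and OAT supply ornithine in the mitochondria, OTC joins it with carbamoyl phosphate to give citrulline, and CPS1 makes that carbamoyl phosphate under the control of N-acetylglutamate from NAGS. ASS1 and ASL then turn citrulline into arginine in the cytosol, and the arginases ARG1 and ARG2 split arginine into ornithine and urea.

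Probe sequences are shown for the genes whose levels carry the results, as the array files give them and written 5′ to 3′. Of the OAT probes, 4 overlap one another, and the 30-base windows below let them be compared. Capitals mark the runs that all 4 of these probes share, and lower case the bases between and around them.
OAT A_72_P602358: AAGCCCTTCggtgtaagTTCATACGATTTT
OAT A_72_P689443: AAGCCCTTCagtggaagtTTCATACGATTT
OAT A_72_P602278: AAGCCCTTCagtgtaagtTTCATACGATTT
OAT A_72_P558030: AAGCCCTTCagtgtaagtTTCATACGATTT
The next sequences are, in order, a stretch of an OAT probe from another part of the transcript, an OAT probe from further upstream printed whole, and a stretch of the probes that stand for OTC, NAGS, ASS1 and ARG1.
OAT A_72_P642780: ttttgagtaaactccaaattggccaactcc
OAT A_72_P612562: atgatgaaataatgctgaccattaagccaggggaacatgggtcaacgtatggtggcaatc
OTC A_72_P665814: acacacgggatagttccataaatttactgc
NAGS O4446: aattccttcaggtcttgcaacttctcagga
ASS1 O6179: cagcaaacggaagggtagggggtggctgcc
ARG1 A_72_P057696: actgtatcaattccctcttggtgtgaaaat
Probes of 1 gene were not independent of each other. The probes A_72_P558030 and A_72_P602278 of OAT shared a run of 51 of 60 bases, A_72_P642780 and O13361 of OAT 55, the OTC probes A_72_P665814 and O1182 53, and the NAGS probes O4446 and A_72_P197137 all 60.

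The tissue label was checked against markers of enterocytes, the absorptive cells of the villus. Of 13 enterocyte markers, 9 were tested, and VIL1, CDX2, KRT20 and CDH17 had no probe. Their summed level, on the log2 scale, ranged from 8.06 to 9.33 at day 90 and from 6.34 to 10.3 at day 110. FABP1 (+2.55), ALPI (+2.47) and LCT (+1.37) rose between day 90 and day 110 on the log2 scale, while APOB (-0.99) and ANPEP (-0.59) fell. The 7 smooth muscle markers summed to between 8.26 and 9.49 over all fetuses, with ACTA2 lower (-0.55) at day 110, and the 5 tested hepatocyte markers to between -1.79 and 2.85, with HPX higher (+2.69) and FGB lower (-0.83) at day 110. Of 8 tested leukocyte markers only CD163 was called, rising by 0.94, and the median change over the 8 was -0.16. Of 5 endothelial markers none was called. Between 51.2 and 87.6% of the probes of an array exceeded background.

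One fetus stood apart from its group. Fetus 632, an MS fetus at day 110, had a median correlation with its group mates of 0.905 over the tested probes, the lowest of the 63, whose median was 0.973. Of the 9 enterocyte markers, 8 were below all 6 group mates in this fetus, while EPCAM at 5.71 lay within their range of 5.62 to 6.08. The smooth muscle markers SMTN, DES and CNN1 were above all group mates. Values without this fetus stand beside the results whose call, sign or size it changed and beside the mean change of each gene. Some are also given without fetuses 575 (LW, day 110) and 609 (LWMS, day 110), both choices made after seeing the data.

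ASS1 and OAT changed between day 90 and day 110. The level of ASS1 rose, and OAT fell with each of its 11 probes. ARG1, a gene near the detection limit, was also called lower, but its 3 tested probes had passed the filter on dim signals only through day 90 groups, so its calls are a description here. A probe was called when its limma adjusted p, over all 40515 probes, was at most 0.01 with a log2 difference of at least 0.5. In the mean of the 4 genotypes 15 of 26 member probes were called, against 13.7% of all tested probes, with 1 higher (6.12% of all probes) and 14 lower (7.62%). Those 15 probes stand for 3 of the 7 genes, with 11 of OAT, 1 of ASS1 and 3 of ARG1. Leaving ARG1 aside, 12 of 23 were called, and the median log2 difference was -0.81 over these 23 probes and -0.02 over all tested probes. As 11 of the 23 probes are of OAT, this median mostly reflects 1 gene. The medians by gene were -0.30 (ALDH18A1), -0.88 (OAT), -0.77 (OTC), -0.09 (NAGS), +2.81 (ASS1) and -0.24 (ARG2). Without fetus 632 the count was 16, against 14.5% of all probes, and without fetuses 632, 575 and 609 it was 15, against 15.2%.

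Counts within 1 genotype were smaller. In LW fetuses 1 of 26 probes was called (ALDH18A1, lower), against 4.77% of all probes and 2.54% in that direction. In MS fetuses 7 were called, 4 of OAT and 3 of ARG1 and all lower, against 3.17% and 1.48%. LWMS fetuses had 3, against 9.88%, of which ASS1 was higher (4.2%) and 2 ARG1 probes lower (5.68%). MSLW fetuses had 1, ASS1, against 5.41% and 2.47% in that direction. Without fetus 632, which enters the LW comparison only through the shared variance, the LW count was 14, against 5.56% of all probes. The MS count was then 4, against 3.53%. Those 4 were OAT A_72_P014771 (lower), ARG1 A_72_P618995 and A_72_P613067 (both lower) and ASS1 (higher). With the slide as a block the counts were 4 in LW fetuses, against 5.18%, and 3 in MS fetuses, against 2.86%.

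**Figure D1:**
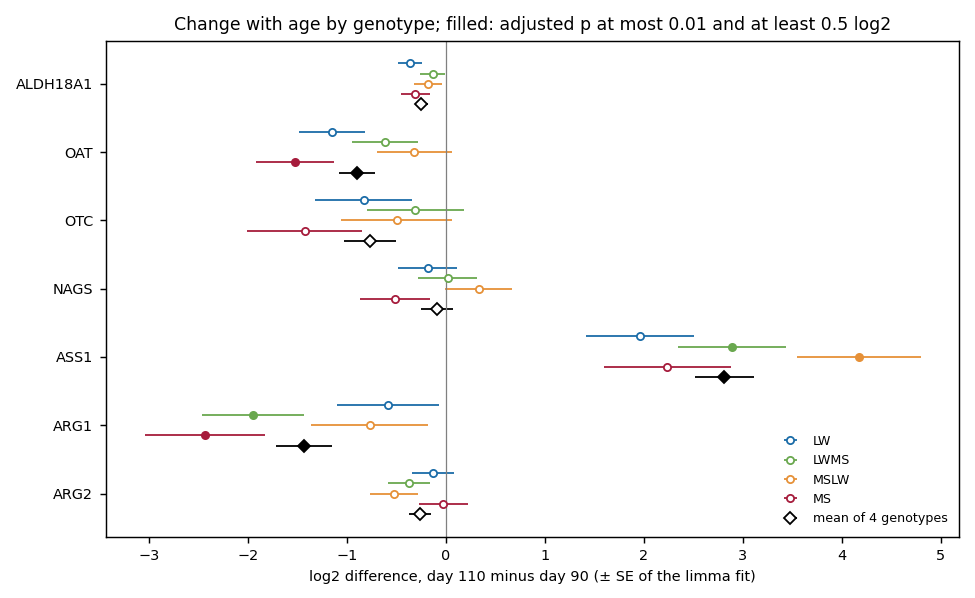
Log2 difference between day 110 and day 90 (x axis, ± SE of the limma fit) of the brightest tested probe of each gene, for each genotype and for the mean of the 4 genotypes, with filled symbols for called differences. ASS1 lies at +2.81 in the mean and OAT at -0.90, while NAGS lies at -0.09 with an SE of 0.16.

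ALDH18A1 makes the glutamate semialdehyde from which ornithine and proline are formed. At day 90 the levels of its brighter probe, O5049, were lowest at 4.38, median 4.69 and highest at 4.94 in LW fetuses, and 4.76, 4.93 and 5.31 in MS fetuses. At day 110 they were 3.86, 4.24 and 4.83 in LW fetuses and 4.34, 4.63 and 4.97 in MS fetuses. Days overlapped in both breeds. The median of LWMS fetuses was 4.87 at day 90 and 4.69 at day 110, and that of MSLW fetuses 4.73 and 4.62. The mean change was -0.25 (SE 0.067, adjusted p = 0.0022) with O5049 and -0.35 (SE 0.078, adjusted p = 0.00025) with A_72_P489911, both under the minimum size for a call, and without fetus 632 that of O5049 was -0.24. In LW fetuses A_72_P489911 fell by 0.55 (adjusted p = 0.0070), and O5049 differed by -0.36 (adjusted p = 0.046). ALDH18A1 varied least of the members within groups, with an SD of 0.26, larger than that of 12.1% of all probes.

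OAT, ornithine aminotransferase, links glutamate semialdehyde and ornithine. Its brightest probe, A_72_P602358, lay at 6.17, 6.90 and 7.23 (lowest, median and highest) in LW fetuses at day 90 and at 3.94, 5.99 and 6.65 at day 110. MS fetuses lay at 7.09, 7.23 and 7.27 at day 90 and at 1.99, 5.90 and 6.83 at day 110. In MS fetuses the days did not overlap, with every day 110 fetus below the lowest day 90 fetus, and in LW fetuses they did. LWMS fetuses lay at 6.80, 7.18 and 7.54 at day 90 and at 5.45, 6.74 and 7.05 at day 110. MSLW fetuses lay at 6.22, 6.64 and 7.21 at day 90 and at 5.83, 6.43 and 6.70 at day 110. Both crosses overlapped between days. Over all 26 member probes, the days did not overlap for 8 probes in MS fetuses, against 2.19% of all probes, and 7 of these 8 were OAT, the other being an ARG1 probe. Without fetus 632 the count was again 8 with 7 of OAT, against 3.78% of all probes. No probe was separated in LW (1.23% of all probes) or LWMS (3.04%), and only ASS1 was separated in MSLW (4.34%).

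The mean change of OAT A_72_P602358 was -0.90 (SE 0.18, adjusted p = 4.9e-05), which is 1.87-fold lower at day 110. The 11 probes ranged from -0.996 to -0.813. By genotype the change was -1.15 in LW (adjusted p = 0.016), -1.52 in MS (adjusted p = 0.0088), -0.62 in LWMS (adjusted p = 0.20) and -0.32 in MSLW fetuses (adjusted p = 0.65), so that only MS passed the threshold with this probe. The genotypes were not shown to differ, since the interaction of age with the 4 genotypes passed an adjusted p of 0.05 for 0 of the 26 member probes in the limma fit. At an unadjusted p under 0.05 it was 3 probes, and 0.0938% of all probes were called. Within each of the 8 slides day 110 was lower, by -1.57 to -0.28. Without fetus 632 the mean change was -0.75 (SE 0.12), that in LW -1.15 (adjusted p = 0.00023) and that in MS -0.91 (adjusted p = 0.030), so the call passed from MS to LW. With fetuses 575 and 609 also left out, MS again passed (adjusted p = 0.0052).

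Enterocyte markers moved with OAT within groups. After subtraction of group means, the mean level of the 9 enterocyte markers had a correlation of 0.91 with OAT over 63 fetuses, and of 0.72 without fetuses 632, 575 and 609. These points share arrays and litters, and the values are descriptive. With the marker mean as a covariate, an alternative added after seeing the data, the mean change of OAT with age was -1.37 (SE 0.082). In whole jejunum, fewer cells of a type and less RNA per cell cannot be told apart. The part of the enterocyte share in the level of OAT was not tested.

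**Figure D2:**
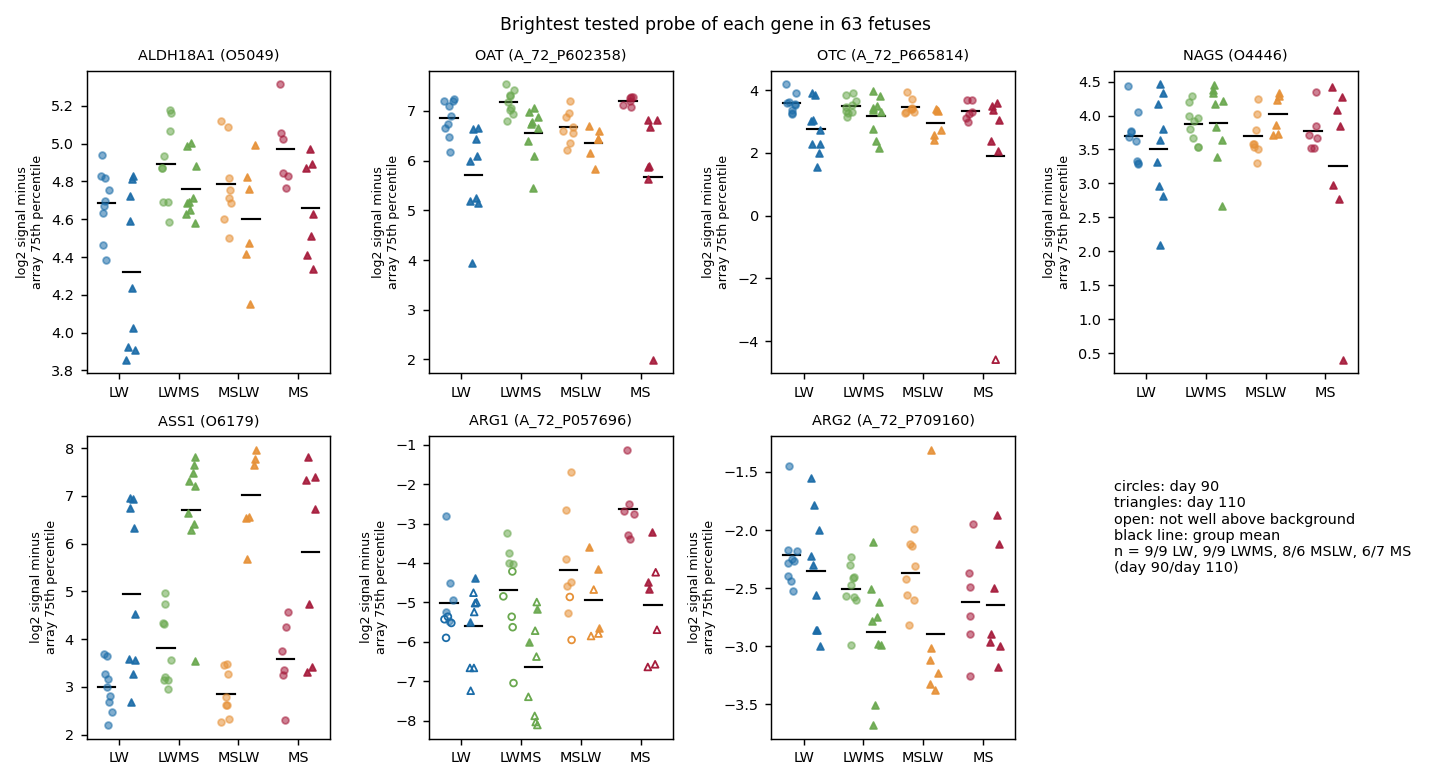
Level of the brightest tested probe of each of the 7 genes (y axis, log2 signal minus the 75th percentile of the array) in each of 63 fetuses, by genotype and day, with group means as lines and open symbols for arrays not well above background. ASS1 is higher at day 110, OAT is lower with 1 MS fetus at 1.99, and ARG1 has 31 of 63 arrays well above background.

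OTC, the mitochondrial enzyme that forms citrulline, was represented by A_72_P665814. Its levels were 3.23, 3.55 and 4.18 in LW fetuses at day 90 and 1.57, 2.74 and 3.92 at day 110. In MS fetuses they were 2.99, 3.27 and 3.70 at day 90 and -4.59, 3.04 and 3.58 at day 110. All genotypes overlapped between days, and the value of -4.59 belonged to fetus 632. LWMS medians were 3.46 at day 90 and 3.36 at day 110, and MSLW medians 3.40 and 3.02. The mean change was -0.77 (SE 0.27, adjusted p = 0.017) and was not called, and the 4 probes ranged from -0.85 to -0.64. Without fetus 632 it was -0.50 (SE 0.13, adjusted p = 0.0012), just under the minimum size, and 1 OTC probe, A_72_P306069 at -0.54, was called. The authors' processed values (-0.78), normexp background correction (-0.70) and quantile normalization (-0.83) also placed OTC past both limits. With the enterocyte marker mean as a covariate the change was -1.44 (SE 0.14, limma adjusted p = 1.2e-12), under the limits given for OAT.

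NAGS makes N-acetylglutamate, the activator of CPS1. The medians of probe O4446 at day 90 were 3.69 in LW, 3.69 in MS, 3.92 in LWMS and 3.58 in MSLW fetuses, and at day 110 they were 3.64, 3.85, 4.18 and 4.05. The lowest level of all, 0.40, was that of fetus 632. The mean change was -0.09 (SE 0.16, adjusted p = 0.70), and the 3 probes ranged from -0.19 to -0.08. Its sign was not stable, since it was 0.03 without fetus 632 and 0.15 with array weights, and within slides it was higher at day 110 in 5 of 8. With the enterocyte marker mean as a covariate it was -0.51 and passed the threshold, under the limits given for OAT.

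ASS1, argininosuccinate synthase, catalyses the step from citrulline towards arginine. At day 90 the levels of O6179 were 2.20, 3.0 and 3.70 in LW, 2.30, 3.55 and 4.56 in MS, 2.95, 3.57 and 4.96 in LWMS and 2.26, 2.70 and 3.48 in MSLW fetuses. At day 110 they were 2.68, 4.53 and 6.95 in LW, 3.31, 6.72 and 7.81 in MS, 3.55, 7.22 and 7.81 in LWMS and 5.69, 7.10 and 7.97 in MSLW fetuses. MSLW was the only genotype in which the lowest day 110 fetus was above the highest day 90 fetus (2.06% of all probes are separated in that direction). The highest day 90 level of any fetus, 4.96, was exceeded at day 110 by 4 of 9 LW, 4 of 7 MS, 8 of 9 LWMS and 6 of 6 MSLW fetuses. The widest gaps between neighbouring levels at day 110 were from 4.74 to 5.69, with 9 fetuses below and 22 above, and from 3.59 to 4.53, with 7 below and 24 above.

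The order of the group means of ASS1 was MSLW (7.03 ± 0.90, SD), LWMS (6.71 ± 1.31), MS (5.82 ± 1.95) and LW (4.95 ± 1.77) at day 110, followed by LWMS (3.82 ± 0.77), MS (3.58 ± 0.81), LW (2.99 ± 0.51) and MSLW (2.85 ± 0.49) at day 90. Each pair of neighbours in this order differed by less than the larger SD of the pair. The mean change was +2.81 (SE 0.30, adjusted p = 1.1e-11), which is 7.04-fold higher at day 110, and +2.92 without fetus 632. By genotype it was +1.96 in LW (SE 0.54, adjusted p = 0.012), +2.24 in MS (SE 0.64, adjusted p = 0.021), +2.89 in LWMS (SE 0.54, adjusted p = 6.7e-05) and +4.17 in MSLW fetuses (SE 0.62, adjusted p = 2.5e-06). LW and MS did not pass the threshold of 0.01, and both passed it without fetus 632 (adjusted p = 0.0072 and 0.0042). Within the 8 slides ASS1 was higher at day 110 in 8, by 1.91 to 3.70. Probe A_72_P313643, which the study's annotation pairs with ASS1 and the array files name only by a transcript identifier, changed by +2.61 (SE 0.30, adjusted p = 2.4e-10) and is no member by the rule. Its sequence, shown because it is a separate reading of ASS1, is as follows.
ASS1 A_72_P313643: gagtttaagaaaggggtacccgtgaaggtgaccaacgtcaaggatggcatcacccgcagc

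Within groups ASS1 varied more than 97.7% of all tested probes, with an SD of 1.18. Its SD was 0.65 among 32 fetuses at day 90 and 1.56 among 31 at day 110. ASS1 followed the enterocyte marker mean within groups with a correlation of 0.78 over 63 fetuses and of 0.82 over 60. With that mean as a covariate its change with age was +2.15, under the limits given for OAT. The part of the enterocyte share was not tested. By their correlation over 63 fetuses, the genes most like ASS1 among 17622 candidate probes were SLC25A4 (0.96), an exchanger of ADP and ATP of the mitochondrion, SLC5A6 (0.95), a vitamin transporter, and DDR1 (0.93), a collagen receptor. Within groups the values were 0.91, 0.90 and 0.87.

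ARG1, the cytosolic arginase of liver and of some blood cells, was close to background. Its brightest probe, A_72_P057696, was well above background on 31 of 63 arrays, namely on 6 of 6 MS, 5 of 9 LW, 4 of 9 LWMS and 6 of 8 MSLW fetuses at day 90, and on 3 of 7 MS, 2 of 9 LW, 2 of 9 LWMS and 3 of 6 MSLW fetuses at day 110. At day 90 the levels were -3.40, -2.72 and -1.13 in MS fetuses and -5.90, -5.36 and -2.80 in LW fetuses. At day 110 they were -6.64, -4.65 and -3.21 in MS fetuses and -7.24, -5.24 and -4.37 in LW fetuses. MS fetuses at day 90 were the highest group and overlapped LW through 1 fetus. The LWMS medians were -4.22 at day 90 and -6.37 at day 110, and the MSLW medians -4.54 and -5.16.

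The tested ARG1 probes passed the filter only where ARG1 was high, A_72_P057696 through MS and MSLW fetuses at day 90 and the other 2, A_72_P618995 and A_72_P613067, through MS fetuses at day 90 alone. Their calls for age, for breed at day 90 and for the breed of the sire therefore support no difference and are given as descriptions. The mean change of A_72_P057696 was -1.44 (SE 0.28, adjusted p = 3.2e-05), and -1.37 without fetus 632, with -2.44 in MS (adjusted p = 0.0067) and -1.95 in LWMS fetuses (adjusted p = 0.0045). Without fetus 632 the change in MS was -2.19 (adjusted p = 0.019) and was not called. In LW fetuses it was -0.59, against +0.17 with A_72_P618995 and +0.31 with A_72_P613067, and this sign was turned by normexp background correction (0.13) and by the median over the ARG1 probes (0.17). Under normexp the mean change was -0.39 (adjusted p = 0.0089), so its size depended on how signals near background were treated. At day 90 MS minus LW was 2.39 (SE 0.58, adjusted p = 0.0042) with A_72_P057696. In this comparison 2 of 26 member probes were called, against 3.59% of all probes and 1.32% in the same direction, and both were of ARG1. Of the 23 probes of the other genes 0 were called in the limma fit, with 1 at an unadjusted p under 0.05.

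Erythroid markers moved with ARG1. AHSP, a chaperone of alpha globin, and HBB, a beta globin, fell with age by 1.80 and 1.68 on the log2 scale, and AHSP exceeded LW in MS fetuses at day 90 by 1.95 (called). Of 6 erythroid markers 3 were tested, the third being SLC4A1 at -0.02. The median summed level of the 3 was 4.62 in MS fetuses at day 90 and between 3.93 and 4.31 in the other groups. Among the candidate probes the genes most like ARG1 were AHSP (0.83), HBB (0.79) and HBE1 (0.76), and the erythroid marker mean had a correlation of 0.86 with ARG1 over 63 fetuses and of 0.77 within groups. With the erythroid marker mean as a covariate, an alternative added after seeing the data, the mean change of ARG1 was 0.10 (adjusted p = 0.77). The part of blood cells in the level of ARG1 was not tested.

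ARG2, the mitochondrial arginase, was represented by A_72_P709160. Its medians at day 90 were -2.27 in LW, -2.62 in MS, -2.47 in LWMS and -2.37 in MSLW fetuses, and at day 110 they were -2.30, -2.89, -2.78 and -3.17. The mean change was -0.26 (SE 0.11, adjusted p = 0.061), and -0.30 without fetus 632 (adjusted p = 0.030), and the other tested probe gave -0.22 (adjusted p = 0.12). The correlation between these 2 probes was 0.52, the lowest of the members with several tested probes, against 0.86 to 0.998 among the 55 pairs of OAT probes.

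Counts called for breed were small in the limma fit of all fetuses and moved with fetus 632 and with array weights. With so few member probes, a count near the share over all probes says nothing particular about these genes. At day 110 0 of 26 member probes were called between MS and LW, against 5.01% of all probes, with 3 at an unadjusted p under 0.05. Without fetus 632 the count was 2, against 5.43% of all probes, and with array weights, which give arrays far from their group less influence, it was 5, against 15.7%, with ASS1 at 2.32. For the breed of the sow, called at an adjusted p under 0.05, 1 of 26 probes was called, against 15.9% of all probes. It was ALDH18A1 O5049 (7.07% of all probes were called higher), greater by 0.22 (SE 0.067, adjusted p = 0.018) in fetuses of MS sows. The other ALDH18A1 probe, A_72_P489911, gave 0.20 (limma adjusted p = 0.071) and was not called. Without fetus 632 the count was 9, against 21.2% of all probes, and with array weights 14, against 32.6%. For the breed of the sire 1 of 26 probes was called, against 6.97% of all probes and 3.1% in the same direction. It was ARG1 A_72_P057696, greater by 1.28 (SE 0.28, adjusted p = 0.0013) in fetuses of MS sires. Markers of other cell types were also called greater with an MS sire, the erythroid AHSP by 0.96 (adjusted p = 0.0035) and the hepatocyte FGB by 0.87 (adjusted p = 0.0067), and their part in the ARG1 value was not tested. An interaction between age and the breed of the sow was called for 0 of 26 probes, against 0.388% of all probes, with 3, all ARG1, at an unadjusted p under 0.05. The difference of MS and LW in the change with age was called for 0, against 0.0395%, with 3, again ARG1, at an unadjusted p under 0.05. Both were 1 with array weights. The F test over all 8 groups passed an adjusted p of 0.01 for 17 of 26 probes, of ALDH18A1, OAT, ASS1 and ARG1, against 28.8% of all probes.

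The OAT probes did not order the breeds alike. At day 110 MS minus LW was -0.79 with A_72_P558030 and -0.76 with A_72_P602278, and +0.43 with A_72_P642780 and +0.42 with O13361, and none was called. Without fetus 632 these values were -0.18, -0.15, +1.03 and +1.01 in the same order, and the last 2 were called (adjusted p = 0.0031 and 0.0033). With A_72_P602358 the value was -0.03, and it became 0.58 without fetus 632. Within each array the difference A_72_P642780 minus A_72_P558030 was -0.08 ± 0.14 (SD) in 18 LW fetuses, with a range of -0.27 to 0.19, and 1.12 ± 0.35 in 13 MS fetuses, with a range of 0.67 to 1.94. LW and MS fetuses did not overlap. The means of the crosses lay between them, at 0.46 ± 0.13 in 18 LWMS fetuses, with a range of 0.16 to 0.64 that overlapped LW, and at 0.55 ± 0.24 in 14 MSLW fetuses, with a range of 0.0010 to 1.03 that overlapped both LW and MS. Of the 55 pairs of OAT probes, 18 separated MS from LW fetuses in this way, against 1.86% of 24157 pairs of probes of 1 gene over the array. The 55 pairs come from 11 probes, some sharing most of their bases, so they are not independent of each other. This pattern was noticed after seeing the values and was given no p, and its cause was not tested. The change with age, by contrast, had 1 sign and nearly 1 size in the 11 OAT probes.

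**Figure D3:**
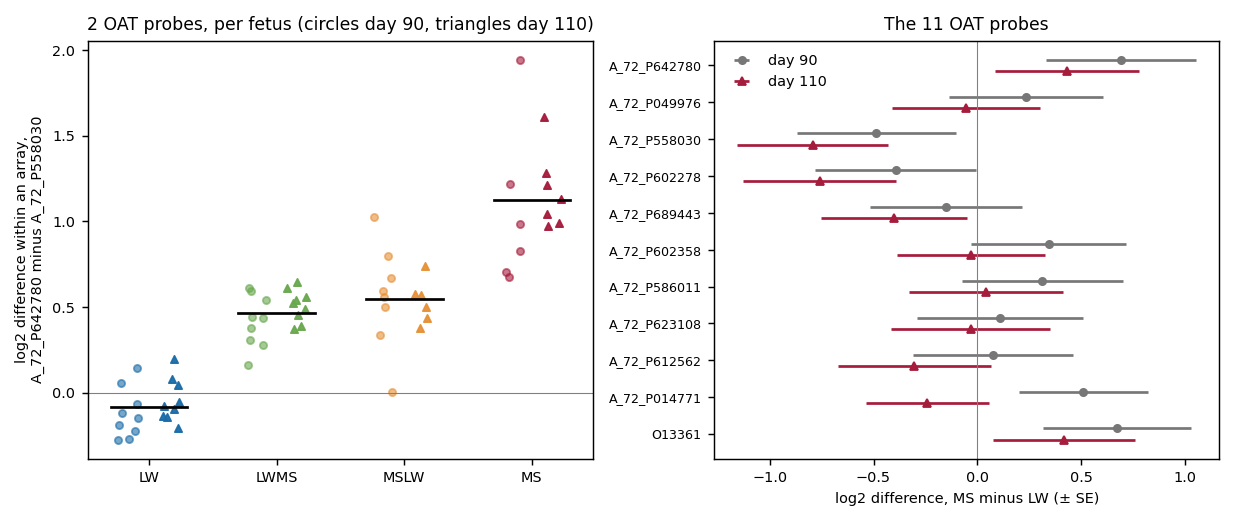
Left, log2 difference within an array between OAT probes A_72_P642780 and A_72_P558030 (y axis) in each fetus by genotype, with the mean as a line. Right, MS minus LW at both days (x axis, log2, ± SE) for the 11 OAT probes, with LW near -0.08 and MS near 1.12 on the left and signs that differ between probes on the right.

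Several members moved together from fetus to fetus within groups. With fetus 632 included, some pairs did so more at day 110 than at day 90. Within groups the correlation of OAT with OTC was 0.91 over 63 fetuses and 0.77 over 60 without fetuses 632, 575 and 609. That of OAT with NAGS was 0.92 and 0.81, and that of OTC with NAGS 0.90 and 0.90. By day, these correlations were 0.59 at day 90 and 0.94 at day 110 for OAT with OTC, 0.70 and 0.95 for OAT with NAGS, and 0.82 and 0.92 for OTC with NAGS. ASS1 had correlations of 0.79 and 0.78 with NAGS and of 0.67 and 0.64 with OAT. That with NAGS was 0.41 at day 90 and 0.85 at day 110, and that with OAT 0.11 and 0.75. Without fetuses 632, 575 and 609 ARG1 had correlations of 0.13 with OAT and 0.14 with ASS1. ARG2 was negatively correlated with the enterocyte marker mean, at -0.52 over 63 fetuses and -0.42 over 60. These are descriptions over fetuses that share slides, and no p is given. Among all 63 fetuses, the genes most like OAT were GLYCTK (0.91), CTSC (0.90) and HEBP1 (0.89). This ranking includes fetus 632, far below its group for OAT, and values without it are not given here.

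**Figure D4:**
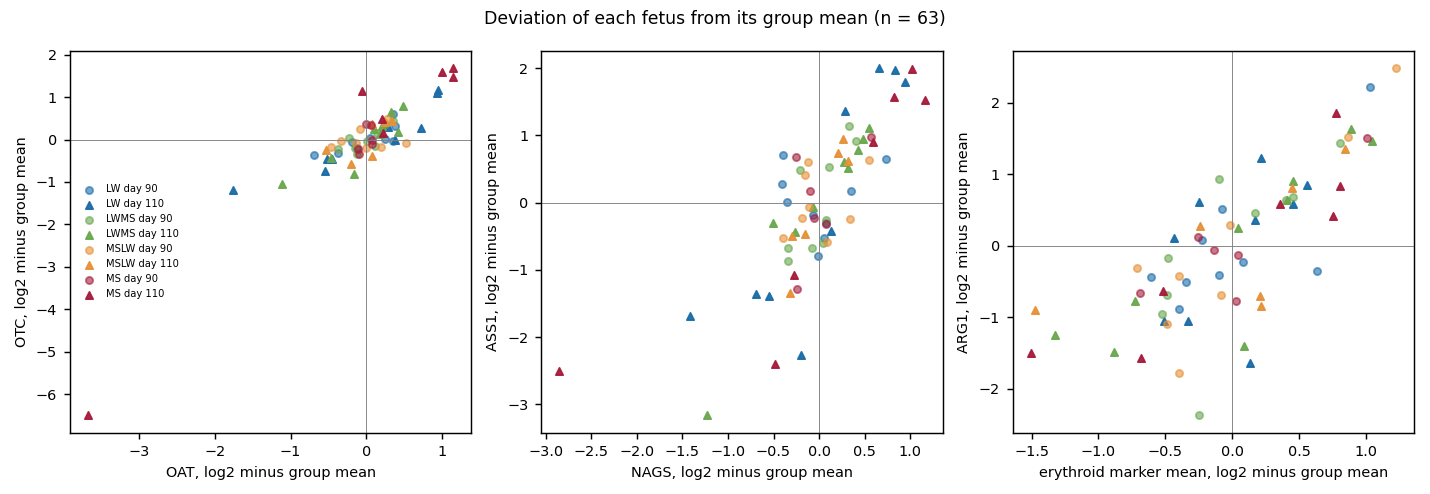
Deviation of each of 63 fetuses from its group mean (log2) for OAT and OTC, NAGS and ASS1, and ARG1 and the erythroid marker mean. OAT and OTC have a correlation of 0.91, and the lowest point is MS fetus 632.

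Genes around the members were counted from 5 lists, beside the 13.7% of all probes called for the change with age. Of the 10 genes reported for entry of glutamine, glutamate and proline, 5 were tested, PRODH (proline oxidase) rose by 0.99 with age in the mean of the genotypes, and the median over these 5 was 0.24. By genotype the change of PRODH was +1.39 in LW, +1.22 in LWMS, +2.22 in MSLW and -0.86 in MS fetuses. PRODH was also lower in MS than LW fetuses at day 110, by -2.24 (limma adjusted p = 0.0020). Its only tested probe was dim, with a mean level of -4.76 over all fetuses. The groups through which this probe passed the filter were not examined, so the values of PRODH are descriptions. Of 12 carriers, 8 were tested and 1 rose, SLC7A9, a subunit of a transporter of cystine and basic amino acids, by 0.87, with a median of -0.24. The list of arginine and ornithine use had 14 of 18 genes tested, with a median change of 0.02. SAT1 (polyamine acetylation, +0.91) and GATM (creatine synthesis, +0.80) rose and DDAH2 (methylarginine breakdown, -0.79) fell. Called in that direction were 7 of 8 tested probes of SAT1, 8 of 8 of GATM and 1 of 2 of DDAH2. All 8 genes of the aspartate and fumarate partners were tested, and GOT1 (cytosolic aspartate aminotransferase, +1.40) and MDH2 (mitochondrial malate dehydrogenase, +0.52) rose, with a median of 0.22. Of the 3 mitochondrial sirtuins none was called for the change with age. SIRT4 changed by -0.19 (limma adjusted p = 0.0088), under the minimum size. SIRT5 is a deacylase with CPS1, which had no probe here, as a known target. It was lower in MS than LW fetuses by -1.12 at day 90 and by -1.23 at day 110, both called. These values are of the brightest of its 3 tested probes, and the other probes are not given here. Over all tested probes the median was -0.02 for the change with age.

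**Figure D5:**
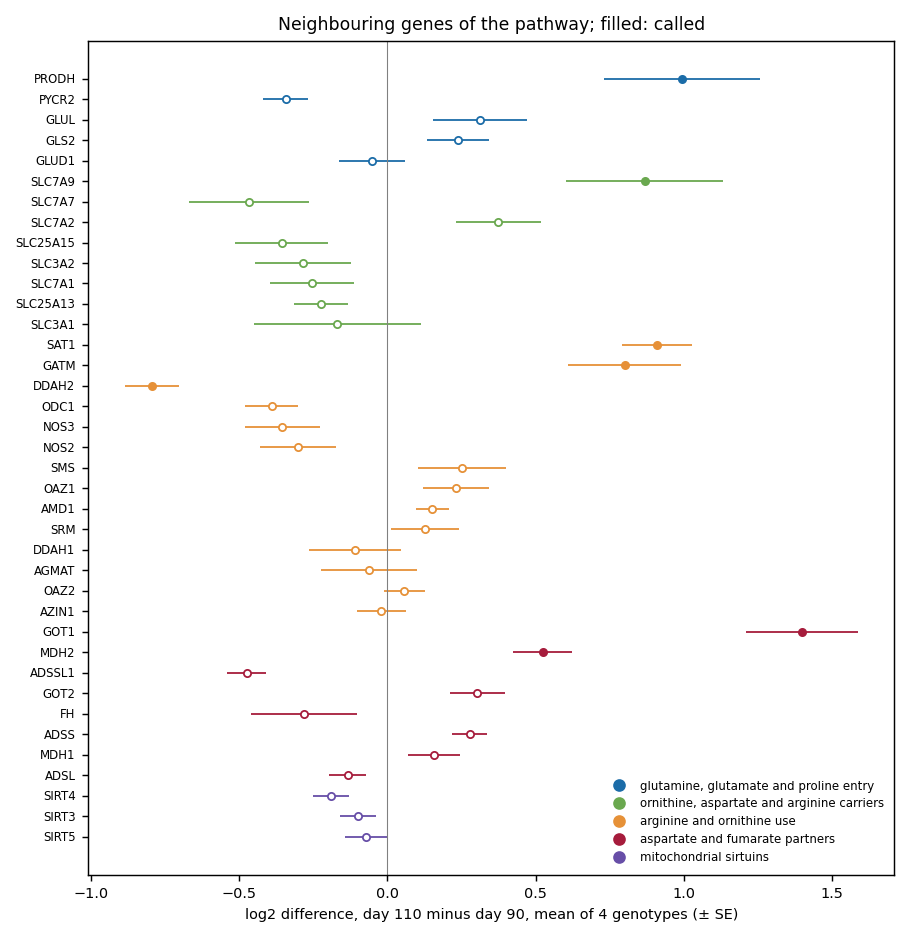
Log2 difference between day 110 and day 90 in the mean of the 4 genotypes (x axis, ± SE) for the tested and reported genes of 5 lists around the pathway, with 1 probe a gene and filled symbols for called differences. DDAH2 lies lowest at -0.79 and GOT1 highest at +1.40.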

How the data were processed

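One array per fetus was read with Agilent Feature Extraction 10.10.1.1, per the labels. The authors deposited spot intensities of 61625 spots (1319 control) together with log2 values of 39446 probes, normalized by them and tracking the log2 median spot signal (median r 0.9998, column medians 8.61). Here log2 of the background-corrected intensity minus the array's 75th percentile was used. Outlier spots were set to missing, which left 2775 tested probes without at least 1 value, and repeated spots were averaged. Tested probes were well above background on 75% of the arrays of at least 1 group. Means of 8 groups were fitted with limma 3.58.1 in R 4.3.3 (with jsonlite 2.0.0). P-values were two-sided and adjusted by Benjamini-Hochberg over all tested probes. Changes with age and between breeds had to reach an adjusted p of 0.01 and a log2 difference of 0.5, and parental effects and interactions at 0.05. The brightest tested probe stood for a gene, a named member was any with a tested probe, and a list named its called genes. Alternatives were other values, normexp (offset 50), quantile and median scaling, other filters, no minimum fold, the slide, weights, an ordinary linear model, the gene's median probe and left-out fetuses. The study modelled the sow at random. Litter mates count here as independent fetuses, so p-values measure the spread between fetuses. Age and the breed of the sow differ between sows, so their p-values may be too small. The steps were tested on simulated data. The members and lists were chosen with earlier results of these data known. Arrays of 7 or 8 fetuses shared a slide. Promoter and protein sequences were not used here. Of the list for glutamine, glutamate and proline entry, 1 gene is not reported here, and its counts and median leave it out.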

Additional observations from a re-analysis of the deposited data

Results flagged for a closer look

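Each of the 7 genes was examined in each of the 8 groups for a fetus set far from the rest, 56 combinations in all, and 8 lay outside the limit. Chance alone puts about 1 in 20 groups outside it. Fetus 632 (MS, day 110) was the lowest of 7 for OAT at 1.99, next to 5.62, for OTC at -4.59, next to 2.06, and for NAGS at 0.40, next to 2.78. Fetus 609 (LWMS, day 110) was the lowest of 9 for ASS1 at 3.55, next to 6.28. Fetus 484 (LW, day 90) was the highest of 9 for ARG1 at -2.80, next to -4.50, and for ARG2 at -1.45, next to -2.17. Fetus 954 (LWMS, day 90) was the lowest of 9 for ARG2 at -2.99, next to -2.60, and fetus 851 (MSLW, day 110) the highest of 6 at -1.31, next to -3.02.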

How the results depend on the processing

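The count of 15 probes for the mean change with age stayed within 1.5 times under every alternative run. With the authors' values and with normexp, however, the probes were of ASS1, OAT and OTC, without ARG1. The authors' values held 23 member probes and lacked ARG1 A_72_P057696, so this probe could not be called there. The count of 1 in MSLW fetuses stayed too, and that of 0 for the interaction of age with the 4 genotypes was 0 throughout. Each other count moved under some setting, and the share of all probes called moved as well. In LW fetuses (1) the count was 11 with the authors' processed values, 4 with normexp, 6 with quantile normalization, 0 with median centring, 0 without a filter, 4 with the slide as a block, 14 with array weights, 0 without fetuses 484 and 469, 14 without fetus 632 and 12 without fetuses 632, 575 and 609. In MS fetuses (7) it was, in the same order, 11, 4, 12, 3, 2 and 3 up to the slide, 4 with an ordinary linear model and 4 without fetus 632. In LWMS fetuses (3) it was 1 with the authors' values, normexp, quantile and median scaling, and 5 with array weights. For MS against LW at day 90 (2) it was 0 with the authors' values, which lack ARG1 A_72_P057696, and 1 with quantile normalization and with the filter on all arrays. At day 110 (0) it was 5 with array weights and 2 without fetus 632 or without the 3 fetuses. For the sow's breed (1) it was 0 with the authors' values and quantile normalization, 2 with the slide, 14 with array weights, 9 without fetus 632 and 10 without the 3. For the sire's breed (1) it was 0 with the authors' values, 4 with array weights, 2 without fetuses 484 and 469 and 3 without the 3. The other counts of interactions with age (0) were 1 with array weights. Over all probes the share called ranged, across these settings, from 2.59 to 8.32% for LW, 1.7 to 10.6% for MS, 5.85 to 14.6% for LWMS, 2.11 to 6.97% for MS against LW at day 90, 3 to 15.7% at day 110, 10 to 32.6% for the sow and 3.81 to 15.5% for the sire, each highest with array weights. For the sow it was 21.2% without fetus 632 and 21.3% without the 3. The causes were not tested.

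Signs turned as follows. OAT in MS against LW at day 110 (-0.03) was 0.094 with median centring, 0.13 with the slide, 0.72 with array weights, 0.019 without fetuses 484 and 469, 0.58 without fetus 632 and 0.36 without the 3. The mean change of NAGS (-0.09) was 0.15 with array weights, 0.030 without fetus 632 and 0.11 without the 3. The mean change of ARG1 was 0.10 with the erythroid covariate, its change in LW 0.13 with normexp and 0.17 with the median over probes, and its difference between MS and LW at day 110 -0.28 with that median. Of the other values of single genes under an alternative, 331 kept sign and side of the threshold, 19 lost the call and 19 gained it. The fetus numbers name animals and no number occurs in 2 groups, so ages could not be paired by animal. The sow of each fetus is not in the labels, so litter mates could not be paired either. The number of arrays limits precision, and ARG1 lies near background.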
